A study of Mus musculus with 10 samples.

Results

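Platelet-derived growth factors (PDGFs) and their receptors were followed in cultured fetal mouse testes through the 6 genes that encode them, the ligands Pdgfa, Pdgfb, Pdgfc and Pdgfd and the receptors Pdgfra and Pdgfrb. The members were taken by gene symbol from a table of 24470 gene entries, and all 6 were found once and passed the filter on low counts that left 13941 genes for testing. The study asked how blocking glycogen breakdown affects the developing testis. Both testes of 5 C57BL/6 mouse embryos at E12.5 were cultured for 48 h, 1 with 75 µM GPI (a small-molecule inhibitor of glycogen phosphorylase) and the other with its solvent DMSO (vehicle). The mesonephros stayed attached during culture and was cut away before RNA was taken. RNA of each whole gonad gave 1 library, so that vehicle-treated and GPI-treated testes (n = 5 each) were paired by mouse. Library totals ran from 10203679 to 15590223 counts (median 11114376) in vehicle-treated testes and from 11025409 to 15635322 (median 11691690) in GPI-treated testes.

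PDGFs are secreted dimers that bring receptor chains together on the responding cell and start tyrosine kinase signaling, with the alpha receptor taking the A, B and C chains and the beta receptor the B and D chains. In growing vessels, endothelial cells secrete PDGF-B and draw in pericytes that carry the beta receptor. In the fetal testis, Sertoli cells are a source of PDGF-A, and the alpha receptor of interstitial cells is needed for cord formation, vessel patterning and the rise of fetal Leydig cells.

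Of the 6 members, 5 were called at a false discovery rate of 0.05 (quasi-likelihood test of edgeR, Benjamini-Hochberg adjustment across the tested genes), against 22.9% of all tested genes. Higher with GPI were 3 members, Pdgfa, Pdgfd and Pdgfra (11.1% of all tested genes), and lower were 2 members, Pdgfb and Pdgfrb (11.9% of all tested genes). Pdgfc was not called. The call of Pdgfd was lost in 7 of 12 alternative settings, and without mouse 3 the number of all genes called higher fell from 1544 to 969. With scaling by library totals only, 1238 genes were called higher and 1972 lower, in place of 1544 and 1654. The median log2 fold change was 0.23 over the 6 members and 0.02 over all tested genes. For 2 members, Pdgfb and Pdgfrb, no GPI-treated testis reached the range of the vehicle-treated testes, as was the case for 16.1% of all tested genes in either direction. The shares of all tested genes called, 22.9% in either direction, 11.1% higher and 11.9% lower, are also the background of every list count below. Levels below are counts scaled to library size by edgeR's TMM method (CPM) unless a length is named.

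**Figure D1:**
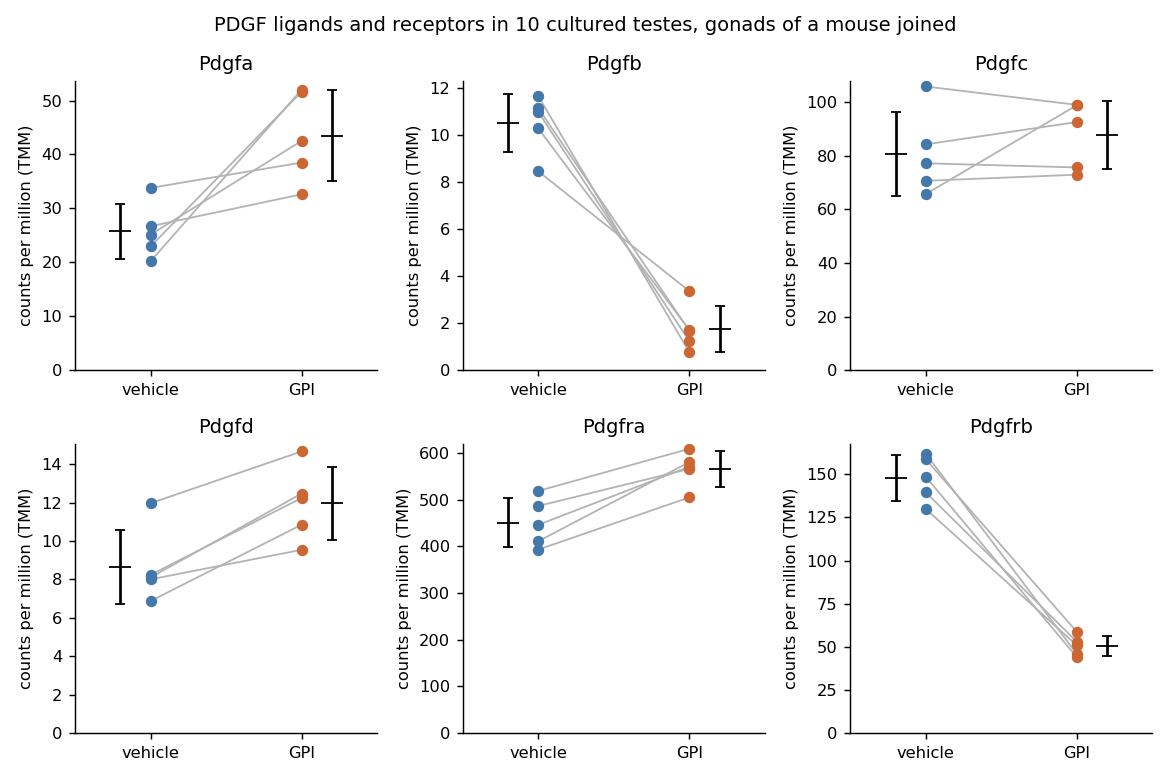
CPM (TMM-scaled, axis from 0) of the 6 members in vehicle-treated and GPI-treated testes, with grey lines joining the gonads of a mouse and black bars giving mean ± SD (n = 5). Pdgfb and Pdgfrb fell in 5 of 5 mice with no overlap between treatments, and Pdgfa, Pdgfd and Pdgfra lay higher in 5 of 5 mice with overlapping ranges.

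Pdgfb (Entrez Gene 18591, chromosome 15 from 79995874 to 80014808, minus strand, mm10) encodes the chain that binds both receptors. It had 8.45, 10.3, 11.0, 11.6 and 11.1 CPM in the vehicle-treated testes of mice 1 to 5, and 3.36, 1.71, 1.23, 0.769 and 1.68 in their GPI-treated testes. Every GPI-treated testis was below every vehicle-treated testis, and the testis of mouse 1 kept the highest level with GPI. The mean fell from 10.5 ± 1.24 to 1.75 ± 0.979 (SD, n = 5), or to 16.7% of the vehicle level. On the log2 scale the change was -2.65 (standard error, SE, 0.31; adjusted p = 2.64e-05, quasi-likelihood test of edgeR, Benjamini-Hochberg adjustment), lower in 5 of 5 mice. The log2 ratio within a mouse ran from -3.66 in mouse 4 to -1.29 in mouse 1. Ranked among the 13941 tested genes, this fold change was number 192 from the lowest. The depth behind it was small, with 94 to 180 counts in a vehicle library and 9 to 37 in a GPI library. The microRNA entry Mir7213 lies inside Pdgfb on the same strand and held 9 counts over the vehicle libraries and 1 over the GPI libraries.

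Endothelial cells, the textbook source of PDGF-B, were followed by 12 markers, all of them tested. All 12 were called lower by edgeR, with a median log2 fold change of -3.04 against 0.02 over all tested genes. Summed over the 12 markers, CPM were 786, 823, 787, 891 and 827 in the vehicle-treated testes of mice 1 to 5 and 105, 126, 82.9, 65.2 and 78.6 in the GPI-treated testes. The 5 GPI sums lay far below the 5 vehicle sums, at a mean of 11.1% of the vehicle level. Cdh5, an adhesion molecule of endothelial junctions and the most abundant of the 12 with vehicle, went from 229 ± 17.9 to 18.9 ± 5.14 CPM (SD, n = 5), a log2 fold change of -3.63, and with GPI Kdr had the highest CPM. Pecam1 (-4.16), the VEGF receptor gene Kdr (-2.44) and the sialomucin gene Emcn (-2.93) were also lower on the log2 scale. None of the 12 was at 0 counts in any library. Bulk RNA cannot tell fewer cells of a type from less RNA per cell, and the part of these markers in the change of Pdgfb was not tested beyond the ratio that follows.

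Relative to the summed counts of the 12 endothelial markers, Pdgfb made up 1.07%, 1.25%, 1.39%, 1.31% and 1.35% in the vehicle-treated testes of mice 1 to 5. With GPI it made up 3.21%, 1.36%, 1.49%, 1.18% and 2.14%. The ratio was higher in 4 of 5 mice and lower in mouse 4, and the 2 ranges overlapped. Its mean log2 change was 0.46 (SD 0.69, n = 5 mice; exact two-sided sign-flip permutation test, p = 0.25, adjusted p = 0.25 over 2 ratios). Without mouse 1 the mean log2 change of the ratio was 0.18. The smallest p that 5 mice allow in this test is 0.0625.

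Pdgfa (Entrez Gene 18590, chromosome 5 from 138976971 to 138994953, minus strand, mm10) encodes the chain that binds the alpha receptor only. Its levels were 26.7, 33.8, 20.2, 25.1 and 22.9 CPM in the vehicle-treated testes of mice 1 to 5 and 32.6, 38.5, 52.0, 42.5 and 51.6 in the GPI-treated testes. The GPI-treated testes of mice 3 and 5 were the highest, and the ranges met where the vehicle-treated testis of mouse 2 exceeded the GPI-treated testis of mouse 1. The mean rose from 25.8 ± 5.11 to 43.5 ± 8.42 (SD, n = 5), a log2 fold change of 0.75 (SE 0.16; adjusted p = 0.00327, quasi-likelihood test of edgeR, Benjamini-Hochberg adjustment). Pdgfa was higher in 5 of 5 mice, by 0.19 on the log2 scale in mouse 2 and by 1.36 in mouse 3.

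Sertoli cells were followed by 10 markers, of which 6 were called higher by edgeR and 0 lower, and their median log2 fold change was 0.57 (0.02 over all tested genes). Their summed CPM were 286, 439, 334, 412 and 459.5 in the vehicle-treated testes of mice 1 to 5 and 318, 606, 637, 782 and 602 in the GPI-treated testes. Each mouse had the higher sum with GPI, and the gain was smallest in mouse 1. Sox8 (1.43), Mro (0.89) and Dhh (0.92), the gene of a hedgehog ligand, rose on the log2 scale, as did Sox9 (0.59). Of the 4 not called, Fgf9 (-0.33) and Cst9 (-0.19) were negative and Amh (0.08) was near 0 and turned negative without mouse 3 or 4, all 3 named after their values were seen. Aard, the most abundant of the 10, had a log2 fold change of 0.54 that no longer passed without the replicate block (adjusted p = 0.0929) or without mouse 3 (adjusted p = 0.0502, edgeR). None of the 10 was at 0 in any library. As a percent of these summed counts, Pdgfa stood at 6.84 ± 1.70 with vehicle and 7.76 ± 1.91 with GPI (SD, n = 5), higher in 3 of 5 mice. This ratio was chosen after the values were seen and has no test, and the part of the Sertoli cell markers in the rise of Pdgfa was not tested.

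Pdgfc (Entrez Gene 54635, chromosome 3 from 81036416 to 81214031, plus strand, mm10) encodes a chain secreted in latent form. It had 106, 65.8, 84.3, 77.2 and 70.7 CPM in the vehicle-treated testes of mice 1 to 5 and 99.0, 98.9, 92.6, 75.7 and 73.0 in the GPI-treated testes. The ranges overlapped almost wholly, and only mouse 2 showed a wide gap. Means were 80.8 ± 15.7 and 87.8 ± 12.6 (SD, n = 5), a log2 fold change of 0.13 (SE 0.10; adjusted p = 0.405, quasi-likelihood test of edgeR, Benjamini-Hochberg adjustment). The difference was positive in 3 of 5 mice and smaller than the spread between them. The log2 fold change of Pdgfc ran from 0.014 to 0.17 with each mouse left out.

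Pdgfd (Entrez Gene 71785, chromosome 9 from 6168612 to 6377519, plus strand, mm10) encodes the other latent chain, a ligand of the beta receptor. Vehicle-treated testes of mice 1 to 5 had 7.999, 8.23, 11.96, 6.87 and 8.10 CPM, and GPI-treated testes 9.54, 12.2, 14.7, 10.8 and 12.47. Mouse 3 was the highest under both treatments, and its vehicle-treated testis lay within the GPI range. The mean rose from 8.63 ± 1.94 to 11.95 ± 1.92 (SD, n = 5), a log2 fold change of 0.48 (SE 0.15; adjusted p = 0.0352, quasi-likelihood test of edgeR, Benjamini-Hochberg adjustment), higher in 5 of 5 mice. This call was lost in 7 of 12 alternative settings, among them DESeq2 (adjusted p = 0.0547), the fit without the replicate block (adjusted p = 0.0611, edgeR) and scaling by library totals (adjusted p = 0.0629, edgeR). Over all 12 settings the adjusted p ran from 0.0336 to 0.117. Strand was ignored in counting, and the entry Ddi1 lies inside Pdgfd on the other strand with 57 counts over the vehicle libraries and 100 over the GPI libraries, so reads of these 2 genes cannot be told apart by strand.

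**Figure D2:**
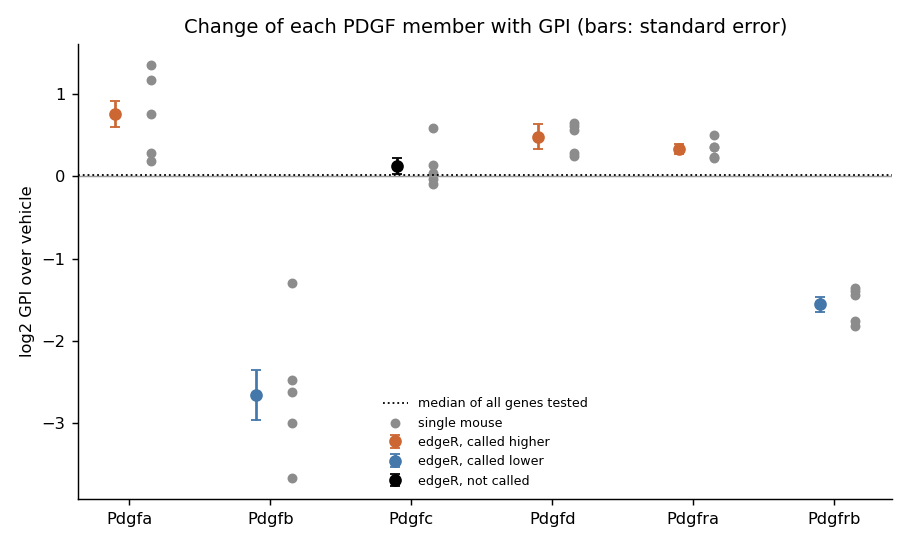
Log2 ratio of GPI over vehicle for each member, with the edgeR estimate ± standard error in color and the 5 single mice in grey; the dotted line is the median of all tested genes (0.02). Pdgfb (-2.65) and Pdgfrb (-1.55) lie below 0 in every mouse, and the single-mouse values of Pdgfc fall on both sides of 0.

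Pdgfra (Entrez Gene 18595, chromosome 5 from 75152291 to 75198204, plus strand, mm10) encodes the alpha receptor and was the member with the most counts. It had 446, 411, 487, 393 and 519 CPM in the vehicle-treated testes of mice 1 to 5 and 571, 581, 566, 505 and 609 in the GPI-treated testes. The GPI-treated testes lay higher apart from mouse 4, whose 505 was below the 519 of the vehicle-treated testis of mouse 5. The mean rose from 451 ± 52.1 to 566 ± 38.2 (SD, n = 5), a log2 fold change of 0.33 (SE 0.07; adjusted p = 0.0022, quasi-likelihood test of edgeR, Benjamini-Hochberg adjustment). It was higher in 5 of 5 mice, by 0.22 to 0.50 on the log2 scale. The microRNA entry Mir7025 inside Pdgfra held 5 counts over the vehicle libraries and 12 over the GPI libraries.

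The 3 members called higher are shown with the bases before a start site, from RefSeq (GRCm38.p6), because they share a direction, not the same profile over mice. Promoters were examined for Pdgfa, Pdgfc, Pdgfd and Pdgfra, that is 4 of 6 members, and not for Pdgfb and Pdgfrb. Each run is 250 bases, 5' to 3' on the gene's strand, and ends 1 base before an annotated start, for Pdgfa that of 2 annotated starts which is nearer to the end of the gene in the deposited table. Capitals mark matches, on either strand, to the GC box GGGCGG, the CCAAT box CCAAT, the TATA box TATAAA and the NR5A1 motif AAGGTCA.
Pdgfa, chr5:138994945-138995194, minus strand: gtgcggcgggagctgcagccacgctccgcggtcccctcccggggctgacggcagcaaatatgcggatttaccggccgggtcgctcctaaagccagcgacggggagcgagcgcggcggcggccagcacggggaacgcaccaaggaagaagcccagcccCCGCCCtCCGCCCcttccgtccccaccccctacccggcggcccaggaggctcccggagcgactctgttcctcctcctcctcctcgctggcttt
Pdgfra, chr5:75152001-75152250, plus strand: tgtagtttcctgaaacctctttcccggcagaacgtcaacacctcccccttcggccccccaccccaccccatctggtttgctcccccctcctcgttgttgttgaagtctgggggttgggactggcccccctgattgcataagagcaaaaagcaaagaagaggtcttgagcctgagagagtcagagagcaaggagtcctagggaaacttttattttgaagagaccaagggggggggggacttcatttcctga
Pdgfd, chr9:6168236-6168485, plus strand: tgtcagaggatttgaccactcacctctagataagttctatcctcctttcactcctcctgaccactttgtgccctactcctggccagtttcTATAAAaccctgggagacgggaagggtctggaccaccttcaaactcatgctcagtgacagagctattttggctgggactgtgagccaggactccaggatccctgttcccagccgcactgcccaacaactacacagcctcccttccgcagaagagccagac
The run before the other annotated start of Pdgfa (chr5:138994282-138994531, not shown) held 1 GC box and 66.4% guanine and cytosine. The annotated starts of Pdgfra (75152251) and Pdgfd (6168486) differ from the starts of these genes in the deposited table. The Pdgfa run shown held 2 GC boxes, the Pdgfd run 1 TATA box, and the Pdgfra run 0 matches to the 4 motifs. Over all 32851 promoters of this length, the GC box was found in 32.7%, the CCAAT box in 33.8%, the TATA box in 12.4% and the NR5A1 motif in 4.08%. Guanine and cytosine made up 72.4% of the Pdgfa run, 54.4% of the Pdgfra run and 53.6% of the Pdgfd run. No motif was shared by the 3 runs.

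Interstitial progenitors, the cells known for the alpha receptor, were followed by 10 markers, of which 9 were tested. Among these, 1 was called higher (Maf, log2 fold change 0.49) and 4 lower by edgeR, among them Hes1 (-0.99), Gli1 (-0.42) and Tcf21 (-0.30), with a median of -0.30 against 0.02 over all tested genes. The calls of Gli1 and Tcf21 were each lost in 3 of 12 alternative settings. The number called lower was 2 without mouse 2 and 1 without mouse 3 or 4, and the number called higher was 2 without mouse 1. Their summed CPM were 1104, 1293, 1206, 1122 and 1114 in the vehicle-treated testes of mice 1 to 5 and 1072, 1209, 1028.5, 1008 and 1222 in the GPI-treated testes. These sums overlapped between treatments and were lower with GPI in 4 of 5 mice. The most abundant, Nr2f2, had a log2 fold change of -0.18 (adjusted p = 0.104, edgeR) that passed only with scaling by library totals, and Lhx2 was at 0 in 3 GPI libraries. Pdgfra counts were 38.8% ± 5.68 of these summed counts with vehicle and 51.3% ± 2.82 with GPI (SD, n = 5), higher in 5 of 5 mice, a ratio chosen after the values were seen and given without a test.

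Fetal Leydig cells, which arise among these interstitial cells, were followed by 8 markers, and all 7 tested were called higher by edgeR (median log2 fold change 1.66, against 0.02 over all tested genes). Their summed CPM were 122, 253, 352, 185 and 463 in the vehicle-treated testes of mice 1 to 5 and 841, 876, 1338, 1530.4 and 1114 in the GPI-treated testes, with no overlap. The most abundant with vehicle was Hsd3b1 (log2 fold change 1.75), an enzyme of steroid synthesis, and with GPI Cyp11a1 had the highest CPM. The same direction was seen for Cyp17a1 (3.90), Cyp11a1 (2.90) and the gene of the nuclear receptor Nr5a1 (1.11). Insl3 was not tested and was at 0 in 2 vehicle and 2 GPI libraries. The part of the interstitial and Leydig markers in the rise of Pdgfra was not tested.

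Pdgfrb (Entrez Gene 18596, chromosome 18 from 61045150 to 61085067, plus strand, mm10) encodes the beta receptor. Its levels were 139, 129.9, 159, 162 and 149 CPM in the vehicle-treated testes of mice 1 to 5 and 52.9, 50.7, 58.6, 45.8 and 43.9 in the GPI-treated testes. The 2 groups were far apart, the highest GPI-treated testis lying below the lowest vehicle-treated one. The mean fell from 148 ± 13.3 to 50.4 ± 5.86 (SD, n = 5), or to 34.1% of the vehicle level. The log2 fold change was -1.55 (SE 0.09; adjusted p = 5.96e-08, quasi-likelihood test of edgeR, Benjamini-Hochberg adjustment), with -1.82 to -1.35 in single mice and a fall in 5 of 5.

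Pericytes and other mural cells, which carry the beta receptor, were followed by 10 markers. All 8 tested markers were called lower by edgeR, with a median log2 fold change of -2.23 against 0.02 over all tested genes. Summed over the 10, CPM were 687, 735, 696, 703 and 654 in the vehicle-treated testes of mice 1 to 5 and 127, 103, 90.3, 86.4 and 104 in the GPI-treated testes. The sums did not overlap, and the GPI mean was 14.7% of the vehicle mean. Abcc9, a subunit of a potassium channel and the most abundant marker, went from 434 ± 28.2 to 28.5 ± 3.42 CPM (SD, n = 5), a log2 fold change of -3.93. Its partner Kcnj8 (-4.07), the G protein regulator Rgs5 (-4.32) and the adhesion molecule Mcam (-1.66) were lower as well. Cspg4 (-1.44), Anpep (-1.31) and Notch3 (-0.82) were lower too, but each fell less than Pdgfrb (-1.55). These markers were named after their values were seen and were not run one by one in other settings. Ndufa4l2, named after its values were seen, was higher in 1 mouse, and its GPI libraries ran from 4 to 244 counts, so that 1 of them adds to the GPI sums above and enters the ratio below. Its log2 fold change of -2.80 was -1.60 and no longer passed without the replicate block (adjusted p = 0.137, edgeR). Not tested were Higd1b, at 0 in 1 GPI library, and Vtn, at 0 in 1 vehicle and 2 GPI libraries.

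Relative to the summed counts of the mural markers, Pdgfrb stood at 20.3%, 17.7%, 22.8%, 23.0% and 22.7% in the vehicle-treated testes of mice 1 to 5 and at 41.5%, 49.2%, 64.9%, 53.0% and 42.1% in the GPI-treated testes. Every GPI-treated testis had the larger share, so that Pdgfrb fell less than the sum of these markers. The mean log2 change of the ratio was 1.22 (SD 0.27, n = 5 mice; exact two-sided sign-flip permutation test, p = 0.0625, the smallest that 5 mice allow, adjusted p = 0.125 over 2 ratios). Abcc9 dominated the sum, and without it the mean log2 change was 0.29; with the mean of the markers' log2 counts in place of their sum it was 0.74. Smooth muscle cells also carry the beta receptor, and of their 7 markers 5 were tested and 1 was called lower by edgeR (Smtn, log2 fold change -0.85). Without mouse 2 the number called lower was 2, as Des also passed (-0.65, adjusted p = 0.0282, edgeR). Their median was -0.15 (0.02 over all tested genes), and Acta2, the most abundant, had -0.12 (adjusted p = 0.508, edgeR). Smooth muscle sums were 195, 230.3, 220.2, 195 and 199 CPM in the vehicle-treated testes of mice 1 to 5 and 198, 179, 181, 136 and 173 in the GPI-treated testes, and none of the 7 was at 0 in any library. Pdgfrb counts were 71.5% ± 9.62 of the smooth muscle sum with vehicle and 29.3% ± 3.58 with GPI (SD, n = 5), a ratio chosen after the values were seen and given without a test. The part of the mural and smooth muscle markers in the fall of Pdgfrb was not tested beyond these ratios.

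**Figure D3:**
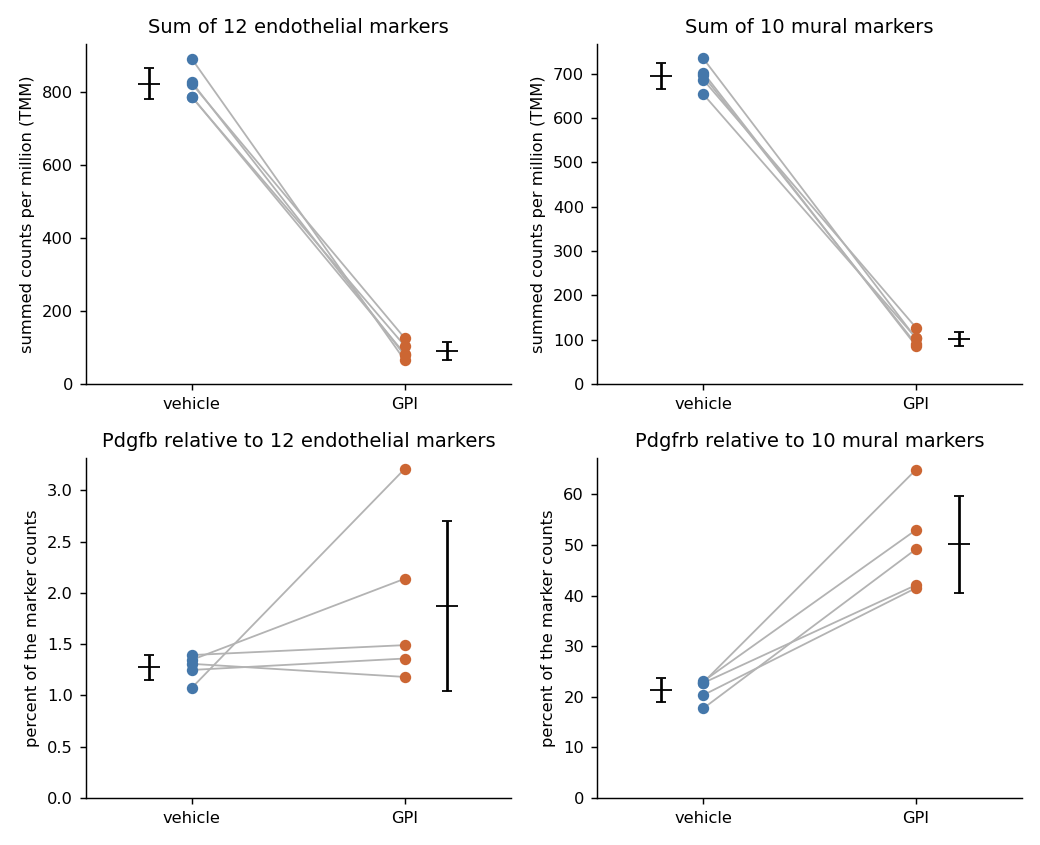
Top, summed CPM of 12 endothelial and 10 mural markers; bottom, Pdgfb and Pdgfrb counts as a percent of the summed marker counts, with lines joining the gonads of a mouse and bars giving mean ± SD (n = 5). Both sums fell in 5 of 5 mice, while the Pdgfrb ratio rose in 5 of 5 and the Pdgfb ratio in 4 of 5.

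To see whether members moved apart, the log2 ratio of GPI over vehicle was compared between members within each mouse for 6 pairs, with exact two-sided sign-flip permutation tests. The ratio of Pdgfra exceeded that of Pdgfrb by 1.89 (SD 0.21, n = 5 mice, positive in 5 of 5; exact p = 0.0625, adjusted p = 0.188 over 6 pairs). That of Pdgfa exceeded that of Pdgfb by 3.36 (SD 1.22, n = 5, positive in 5 of 5; exact p = 0.0625, adjusted p = 0.188). With 5 mice no pair could reach a p under 0.05, and 0.0625 is the smallest this test gives. Pdgfb fell by more than Pdgfrb in 4 of 5 mice, with a mean difference of -1.06 on the log2 scale (exact p = 0.125, n = 5). Pdgfa minus Pdgfc came to 0.62 (positive in 4 of 5 mice, exact p = 0.188), Pdgfa minus Pdgfra to 0.42 (3 of 5, exact p = 0.25) and Pdgfc minus Pdgfd to -0.34 (1 of 5, exact p = 0.125). The difference of Pdgfa minus Pdgfra ran from 0.24 to 0.60 with each mouse left out.

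Per kilobase of exon, which allows levels of different genes to be compared, the receptors led in vehicle-treated testes. Pdgfra stood at 45.0 ± 5.20 CPM per kilobase (SD, n = 5), followed by Pdgfrb at 27.0 ± 2.43, Pdgfc at 15.9 ± 3.08 and Pdgfa at 8.26 ± 1.64. With this length each of these 4 lay above the next without overlap, and Pdgfa lay above Pdgfd. The lowest levels per kilobase, 2.74 ± 0.615 for Pdgfd and 2.52 ± 0.299 for Pdgfb, overlapped and changed places when the longest transcript was taken as the length. That length also moved Pdgfa to 12.504 with vehicle and 21.1 with GPI, and with it Pdgfc (18.7 to 30.07) overlapped with Pdgfrb (23.95 to 29.8) in vehicle-treated testes. In GPI-treated testes Pdgfra led with 56.5 ± 3.81 CPM per kilobase, then came Pdgfc (17.3 ± 2.49), Pdgfa (13.9 ± 2.70), Pdgfrb (9.19 ± 1.07), Pdgfd (3.79 ± 0.609) and Pdgfb (0.421 ± 0.235). There Pdgfc overlapped with Pdgfa and, with the exon length only, Pdgfa with Pdgfrb, whereas Pdgfd and Pdgfb were 9.004-fold apart without overlap. Pdgfrb thus went from the second to the fourth place. Against all tested genes with a length, the Pdgfb level per kilobase was above 35.8% of them with vehicle and above 7.64% with GPI.

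The makeup of the ligands and of the receptors was also described as shares of their summed levels per kilobase, chosen after the values were seen and without a test. Pdgfra made up 57.0% to 65.6% of the receptor sum in vehicle-treated testes (mean 62.4%) and 84.1% to 88.4% in GPI-treated testes (mean 86.0%). Of the ligand sum, Pdgfb made up 5.98% to 10.1% with vehicle and 0.575% to 2.39% with GPI, and Pdgfa 21.99% to 37.6% and 31.0% to 47.0%. Pdgfc was the largest ligand share on average under both treatments, 53.7% ± 6.02 with vehicle and 48.8% ± 6.83 with GPI (SD, n = 5).

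**Figure D4:**
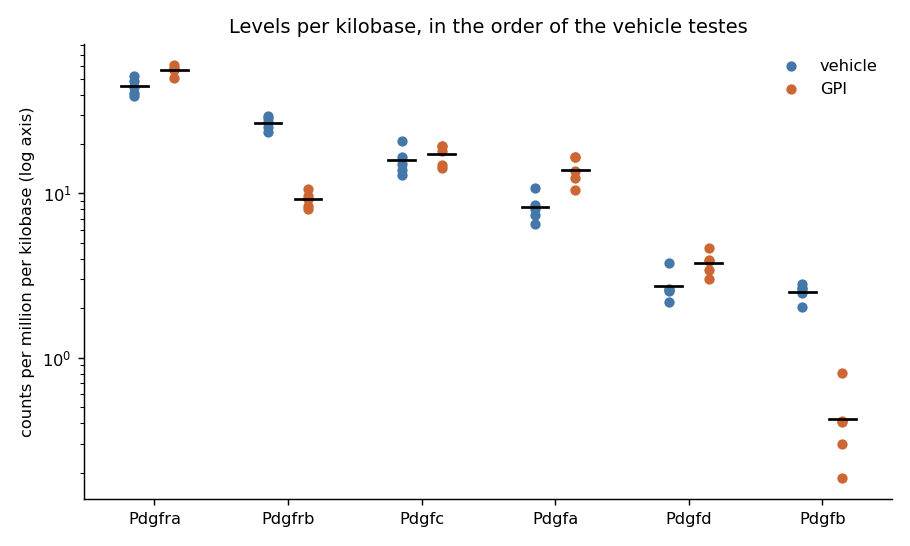
Levels per kilobase of exon (log axis) of the 6 members in each library, vehicle in blue and GPI in orange, with a black bar at each mean; genes stand in the order of the vehicle-treated testes. Pdgfrb drops from 27.0 to 9.19 and Pdgfb from 2.52 to 0.421, while Pdgfra stays the highest.

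The C and D chains become active when proteases cut off their outer domain, and the A and B chains are trimmed by furin-like convertases. Of 9 genes listed for these steps, 7 were tested, 1 was called higher and 3 lower by edgeR, with a median log2 fold change of -0.45 (0.02 over all tested genes). Plat, the tissue plasminogen activator that cleaves the C chain, fell from 59.7 ± 8.003 to 25.3 ± 2.36 CPM (SD, n = 5; log2 fold change -1.23, adjusted p = 1.54e-06, edgeR). Plau, the urokinase that cleaves the D chain, went from 72.2 ± 5.89 to 14.1 ± 3.43 (log2 fold change -2.38, adjusted p = 3.65e-08, edgeR). Its receptor gene Plaur was at 58 to 116 counts with vehicle and at only 5 to 9 with GPI (log2 fold change -3.33, adjusted p = 5.92e-06, edgeR). These 3 genes were lower in 5 of 5 mice with no overlap between treatments. The convertase Pcsk5, the most abundant gene of the list, was called higher (0.23, adjusted p = 0.0431, edgeR), but not in 9 of 12 alternative settings. Furin (0.27), Pcsk6 (-0.13) and Pcsk7 (-0.45) were not called, although Pcsk7 passed in 5 of the 12 settings. St14 had too few counts to be tested.

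Among 10 genes of proteins that bind PDGFs or their receptors, all tested, 8 were called lower and 0 higher by edgeR, and the median log2 fold change was -0.60 (0.02 over all tested genes). Sparc, a matrix protein that binds PDGF-B and the most abundant of the 10, had 1462, 1892, 1535, 1741 and 1551 CPM in the vehicle-treated testes of mice 1 to 5 and 944, 1051, 956, 1152 and 1125 in the GPI-treated testes. Its groups did not overlap (log2 fold change -0.64, adjusted p = 1.2e-05, edgeR). Nrp1, a co-receptor that takes part in PDGF and VEGF signaling, went from 224 ± 20.5 to 124 ± 6.14 CPM (SD, n = 5; -0.85, adjusted p = 5e-06, edgeR). The hyaluronan receptor Cd44 (-1.65), the receptor-like gene Pdgfrl (-1.19), the perlecan gene Hspg2 (-0.56), the integrin subunit Itgb3 (-0.50) and decorin, Dcn (-0.37), were lower on the log2 scale. The call of Dcn was lost in 6 of 12 alternative settings and that of Itgb3 in 3. Without mouse 1 the log2 fold change of Dcn was -0.21. A2m, a plasma protease inhibitor that binds PDGF, fell to 16 to 40 counts in the GPI libraries of 4 mice but stood at 207 in that of mouse 1 (151 with vehicle). Its log2 fold change was -2.20 over the 5 mice. Lrp1 (-0.05) and Itgav (-0.12) were not called.

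Signaling proteins that act next to the activated receptors were called in both directions. Of 24 tested, 2 were higher and 4 lower by edgeR, where 22.9% of all tested genes were called in either direction, with a median log2 fold change of -0.07 (0.02 over all tested genes). Lower were the kinase subunit Pik3r1 (-0.54), Stat3 (-0.57), the Ras GTPase activator Rasa1 (-0.27) and Gab1 (-0.31), and higher were the exchange factor Sos1 (0.25) and Pik3r2 (0.57); Gab1 and Pik3r2 were named after their values were seen. Of 12 alternative settings, Sos1 lost its call in 3, Pik3r2 in 2 and Rasa1 and Gab1 in 1 each. The number called lower was 7 with scaling by library totals and 2 without mouse 4, and the number called higher was 0 without mouse 1. Grb10, the most abundant, had -0.02. Of 9 tested phosphatases and ubiquitin ligases known to act on the receptors, 3 were lower and 0 higher. Lower were Ptpn12 (-0.70), Cbl (-0.36) and Socs3 (-0.72), where 11.9% of all tested genes were called lower. The median of the 9 was -0.13 (0.02 over all tested genes). The call of Socs3 was lost in 3 of 12 settings and that of Cbl in 1, and without mouse 4 the number called lower was 1. Among the related class III receptor kinases and their ligands, 1 of 5 tested genes was called, where 22.9% of all tested genes were called. It was Csf1r (-2.22), the receptor of macrophages, and 0 were higher (median -0.21). Kit (-0.16) and its ligand gene Kitl (-0.06), the most abundant, were not called, nor were Csf1 (-0.21) and Il34 (-1.39).

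Growth factors including PDGFs induce a set of early genes and feedback inhibitors of the ERK pathway, and 17 of these were tested. By edgeR 6 were lower, 0 higher and 11 not called, where 11.9% of all tested genes were called lower. The median log2 fold change was -0.41 (0.02 over all tested genes). Among those not called were the early genes Fos (-0.32), Jun (-0.10), Egr1 (-0.41), Fosb (0.28) and Ier2 (0.17). They were named after their values were seen and were not run one by one in other settings. The feedback inhibitors Spry4 and Spry1 went from 40.0 ± 3.72 to 16.2 ± 2.83 (log2 fold change -1.31) and from 23.8 ± 7.06 to 10.5 ± 1.77 CPM (SD, n = 5; -1.14). The phosphatase Dusp1 (-1.24) and the early gene Ier3 (-1.27) were lower too, while Spred1, the most abundant, was not called (-0.07). These genes respond to many ligands, and the part of PDGF signaling in their change was not tested.

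**Figure D5:**
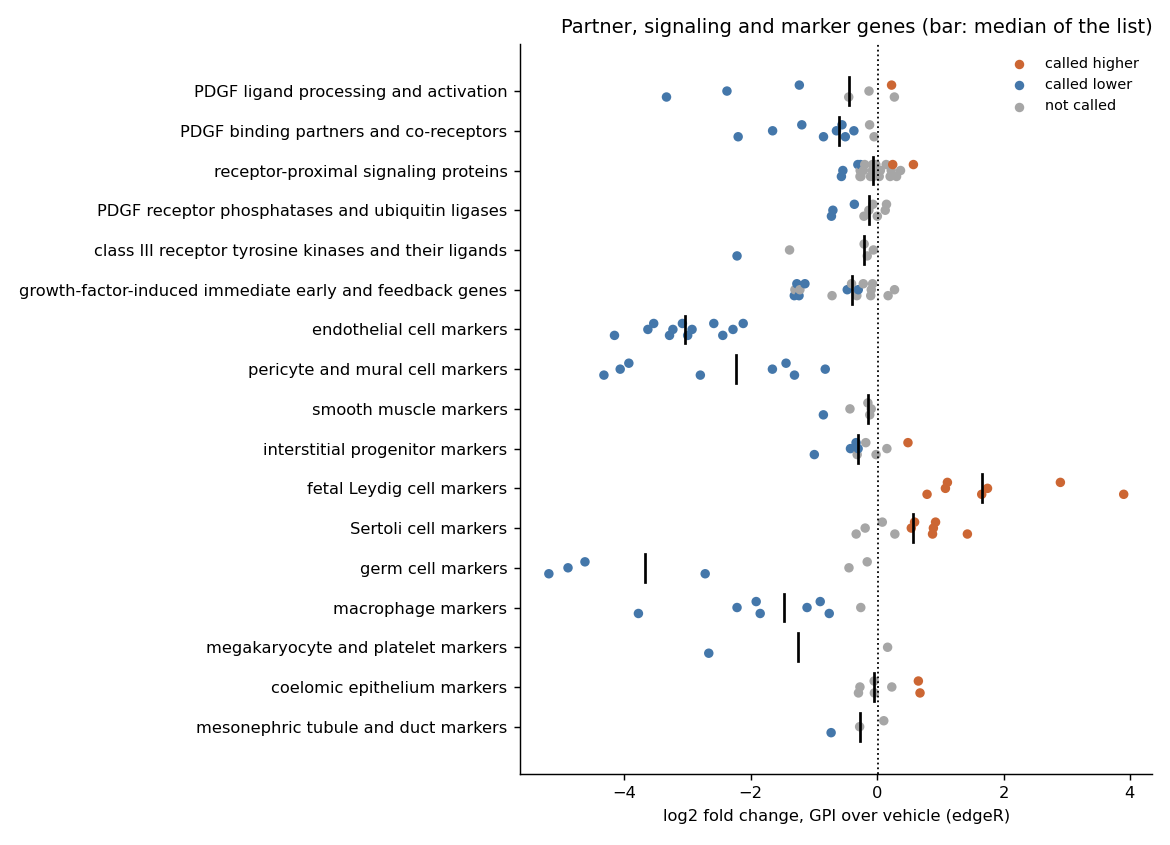
Log2 fold change of every tested gene of the partner, signaling and marker lists, with called genes in color, a black bar at the median of each list and a dotted line at the median of all tested genes (0.02). Binding partners (median -0.60) lie to the left, endothelial (-3.04) and mural markers (-2.23) farther left, and Leydig (1.66) and Sertoli markers (0.57) to the right.

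Further lists covered other cells that the gonad or its surroundings could hold. Of 6 germ cell markers tested, 4 were lower (Dppa3, -5.20; Dazl, -4.62; Sall4, -4.89; Ddx4, -2.72 on the log2 scale) and 0 higher by edgeR, with a median of -3.67 against 0.02 over all tested genes, and Kit was the most abundant. Where 10 counts were required in each library, Dppa3, Dazl and Sall4 were left out of the test, so that 1 germ cell marker was called lower by construction. Pou5f1 was at 0 in 3 GPI libraries, and Nanos2 in 3 vehicle and 2 GPI libraries. Of 8 macrophage markers, 7 were lower and 0 higher (median -1.48), among them Ptprc (-1.85), C1qa (-3.78) and C1qb (-1.91), with Ptprc the most abundant with vehicle and Cd68 (-0.76) with GPI. Cd68 was called in 11 of 12 alternative settings. Of 2 tested platelet markers Pf4 was lower (-2.66) and Itga2b was not called. With the stricter filter, which left Pf4 out of the test, 0 platelet markers were lower, and with no filter 2 were. Of 7 markers of the coelomic epithelium 2 were higher (Gpm6a, 0.65; Upk1b, 0.68) and 0 lower (median -0.04, most abundant Upk3b), and Upk1b lost its call without mouse 3. Of 3 tested mesonephric markers, Emx2, the most abundant, was lower (-0.73), and Pax8 and Gata3 were not called. Of the untested ones, Lhx1 was at 0 in 4 GPI libraries and in 0 vehicle libraries, Pax2 in 0 GPI libraries and 1 vehicle library, Cdh16 in 1 of each and Ret in 1 GPI library.

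The genes whose profiles over the 10 libraries were closest to each called member were found among 11105 genes averaging 50 counts or more, by the root mean square difference of centred log2 CPM. This measure took in the difference between treatments, so that fold changes similar to the member's follow from the selection. Closest to Pdgfb were Ptp4a3 (difference 0.20), the transcription factor gene Sox7 (0.24) and Pik3cg (0.24), and closest to Pdgfrb were Dock6 (0.12), the transcription factor gene Ets1 (0.13) and Pgm2l1 (0.14). Their log2 fold changes were -2.50 for Ptp4a3, -2.35 for Sox7, -2.49 for Pik3cg, -1.50 for Dock6, -1.43 for Ets1 and -1.55 for Pgm2l1, all 6 called lower by edgeR. Closest to Pdgfa were Mlxipl (0.14), Hps3 (0.15) and Lrrc8d (0.15), each called higher. Pdgfd was closest to Slc24a5 (0.14), Efna5 (0.16) and A330076H08Rik (0.16), of which Slc24a5 was not called. Pdgfra was closest to Lamtor3 (0.07), Igdcc4 (0.08) and Gabra4 (0.08), and of these Igdcc4 alone was called higher. Igdcc4, Mlxipl and A330076H08Rik each lost the call in 2 of 12 alternative settings and Hps3 in 1.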

How the data were processed

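RNA-seq was made from 10 cultured testes, 5 with vehicle and 5 with GPI, paired by the animal given in the labels. Read pairs were mapped by the authors with STAR 2.5 against mm10 and counted on RefSeq gene models with featureCounts (Subread 1.5.0-p1), ignoring strand. The deposited values are raw counts for 24470 entries, used without change; 0 other columns of sample values were found.

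Low counts were filtered with filterByExpr of edgeR at its defaults (10 per library, 15 in total). Calls came from the quasi-likelihood test of edgeR after TMM scaling, with mouse as a block beside treatment, and from Benjamini-Hochberg adjustment across 13941 genes at 0.05. SE was obtained from the F statistic as the size of the log2 fold change over its square root. Single-mouse ratios used log2 CPM with a prior count of 2. Deviations from the treatment mean correlated by -0.04 to 0.155 within a mouse (mean 0.06) and by -0.015 on average between mice. Libraries of a treatment differed by a chi-square of 6.42 or more per degree of freedom over genes with at least 100 counts. None was thus a duplicate of another library of its treatment, and pairs across treatments were not compared in this way. Counts of amplified libraries are not independent molecules, so precision came from the spread between mice. Lengths came from GENCODE M21 by Entrez identifier (95.5% of tested genes matched), as the union of exons.

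Genes were named by a rule: the members, every tested gene of the processing and partner lists, in each of the other lists the 4 with the smallest p and the most abundant, and for each called member the 3 closest profiles, 100 genes in all, of which some are not reported here. The members and the 17 other lists were chosen with earlier results of these data known. Settings varied were the tool (limma-voom, DESeq2), the replicate block (left out), scalings, filters, gene lengths and marker summaries, and each mouse was left out in turn. The procedure was tested on simulated data. Python 3.11.15 ran pandas 2.3.3, numpy 2.4.6 and matplotlib 3.10.9, and R 4.3.3 ran DESeq2 1.42.0, limma 3.58.1 and edgeR 4.0.16.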

Additional observations from a re-analysis of the deposited data

Results flagged for a closer look

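In vehicle-treated testes the Pdgfd level of mouse 3 (11.96 CPM) stood apart from the other 4 (6.87 to 8.23), with a gap to its nearest neighbor of 0.733 of the whole range, past the 0.71 limit of Dixon's ratio for 5 values. This was 1 of 50 groups of 5 values examined, and chance passes the limit in about 1 in 20. Without mouse 3 the log2 fold change of Pdgfd was 0.51 (adjusted p = 0.0829, edgeR).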

How the results depend on the processing

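Pdgfa, Pdgfb, Pdgfra and Pdgfrb kept their direction and their call in every alternative in which they were tested, and Pdgfc kept its sign and was never called. With each mouse left out, the log2 fold change ran from 0.59 to 0.90 for Pdgfa, from -3.05 to -2.41 for Pdgfb and from -1.61 to -1.49 for Pdgfrb. Requiring 10 counts in each library left Pdgfb, with 9 counts in 1 library, out of the test, so that 1 member was called lower by construction. Pdgfd was called no longer with DESeq2 (log2 fold change 0.47), without the replicate block (0.47), with library totals only (0.43) and without mouse 2, 3, 4 or 5, where its range with each mouse left out was 0.44 to 0.52; with 1 mouse fewer there are fewer samples, and for the other settings the cause was not tested. Without the replicate block, which sets aside the pairing of gonads, 3108 genes were called in place of 3198, and among the members Pdgfd was the call that changed.

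The number of genes called higher, 1544, was 969 without mouse 3 and 1024 without mouse 4, with a range of 969 to 1430 over the mice. With library totals only it was 1238, beside 1972 called lower, so that 38.6% of the called genes were higher against 48.3% with TMM scaling. Among list genes named one by one, signs turned only where values were near 0 or not called: Gata3 with limma-voom (-0.0024) and without the block (-0.0051), and with a mouse left out from -0.18 to 0.35; Itga2b without the block (-0.069) and with a mouse left out from -0.35 to 0.82; Amh with a mouse left out from -0.12 (without mouse 3; -0.065 without mouse 4) to 0.29; Grb10 with a mouse left out from -0.056 to 0.0031, the highest without mouse 4; and Lrp1 from -0.14 to 0.0081, the highest without mouse 5. The 6 differences between members, the Pdgfb ratio to endothelial markers and the Pdgfrb ratio to mural markers kept their signs; the other 3 ratios to markers were not run in other settings. Among the members, depth limits Pdgfb most, with 9 to 37 counts in the GPI libraries.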
